A study of Homo sapiens with 6 samples.

Results

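The 9 genes described here make glutathione or use it against peroxides and reactive lipids. They were taken by gene symbol: GCLC, GCLM and GSS for synthesis, GSR for recycling, GPX1 and GPX4 for peroxide reduction, and MGST2, MGST3 and GSTK1, which are glutathione transferases of membranes and organelles. All 9 of 9 were found among the 17297 gene symbols measured, and all 9 reached a mean of 1 on the counts-per-million scale (CPM). As these are bulk libraries, fewer cells with a transcript and less of it per cell cannot be told apart. RNA was sequenced from LNCaP cells, an androgen-sensitive line from a human prostate cancer metastasis. One line stably carried the empty retroviral vector (pBabe-vector, genotype WT) and the other stably overexpressed wild-type GNA13 from that vector (pBabe-GNA13, genotype GNA13 overexpression). GNA13 encodes Gα13, an alpha subunit of heterotrimeric G proteins. Both lines were kept in puromycin and sampled after 48 h on plates, with 3 biological replicates each. As each condition is 1 stable line, the replicates are cultures of it, and p-values measure only the spread between them.

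Glutathione is a tripeptide of glutamate, cysteine and glycine and is the most abundant small thiol of most cells. Glutamate-cysteine ligase, formed by the catalytic subunit GCLC and the modifier subunit GCLM, makes the first bond and is the step that usually limits the rate, and glutathione synthetase (GSS) adds glycine. Glutathione peroxidases oxidize glutathione while reducing peroxides, and glutathione reductase (GSR) returns the oxidized form with electrons from NADPH. Together these enzymes are a main route by which cells remove peroxides, including those made from superoxide.

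GNA13 itself checked the labels. It was at 820 CPM in the std library, 886 CPM in replicate 2 and 747 CPM in replicate 3 of pBabe-GNA13, and at 76.7, 69.4 and 65.4 CPM in the std library, replicate 2 and replicate 3 of pBabe-vector. The std library of each line is the one whose heading carries that tag, and the libraries are taken as the std, replicate 2 and replicate 3 pairs. Totals ranged from 33002160 to 40628970 counts, so that 3 counts equal 0.0715 to 0.0935 CPM. All 10 luminal prostate markers, among them KLK2 and KLK3, were above 1 CPM. Of 14 markers of basal, stromal, immune and endothelial cells, 8 were in the table and 4 reached 1 CPM. Their summed level was 42.1 to 58.1 CPM in pBabe-GNA13 and 20.5 to 46.4 CPM in pBabe-vector. In the paired fit described below, 4 of them (KRT5, KRT14, COL1A2 and VWF) were called higher in pBabe-GNA13, beside 9.32% of all genes. KRT5 and COL1A2 had no count in replicate 2 of either line, and COL1A1 and LUM were below 0 in that fit (log2 fold change −0.01 and −0.53) and not called. Of the 10 luminal markers, 4 (KLK2, KLK3, KRT8 and KRT18) were called higher as well. No marker among the 8 was at 0 in every library, and leukocyte markers such as PTPRC and CD3E were not analysed here. The part of these markers in the results for the glutathione genes was not tested.

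None of the 9 genes was called between the lines when the line was the only term (edgeR's quasi-likelihood test, adjusted p under 0.05), against 0.139% of all 17297 genes (0.116% higher and 0.0231% lower). At an unadjusted p under 0.05 there was 1, GSS, which was lower, against 8.46% of all genes and 3.68% in that direction, and neither DESeq2 nor limma-trend called any. All 9 log2 fold changes (pBabe-GNA13 over pBabe-vector) were below 0 (8 with chromosomes centered, where GCLC was at 0.010), as were 50.3% of all genes and 53.6% of genes of at least 1 CPM. Their median was −0.08, beside −0.0013 for all genes, and they ran from −0.31 (GSS) to −0.02 (GCLC). With the library pairs as a block, 4 of the 9 fell in pBabe-GNA13 (GSS, GSTK1, MGST3 and GPX4) and 0 rose. In that fit 19.7% of all genes were called, 10.4% lower and 9.32% higher, and among genes of at least 1 CPM 12.5% were called lower. The same 4 genes were lower in 3 of 3 pairs, as were 25.3% of all genes and 29.0% of those of at least 1 CPM. Without the std, replicate 2 or replicate 3 pair, 4, 3 and 2 of the 9 were called, all lower, beside 10.0%, 7.44% and 6.37% of all genes called lower. With each chromosome centered on its own median as well as the block, 3 of the 9 were called lower, beside 14.1% of all genes (7.56% lower). Without the block, centering left 0 of the 9 called and 0.116% of all genes. The deviations of the 6 libraries were shared within pairs, which is why both fits are given.

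**Figure D1:**
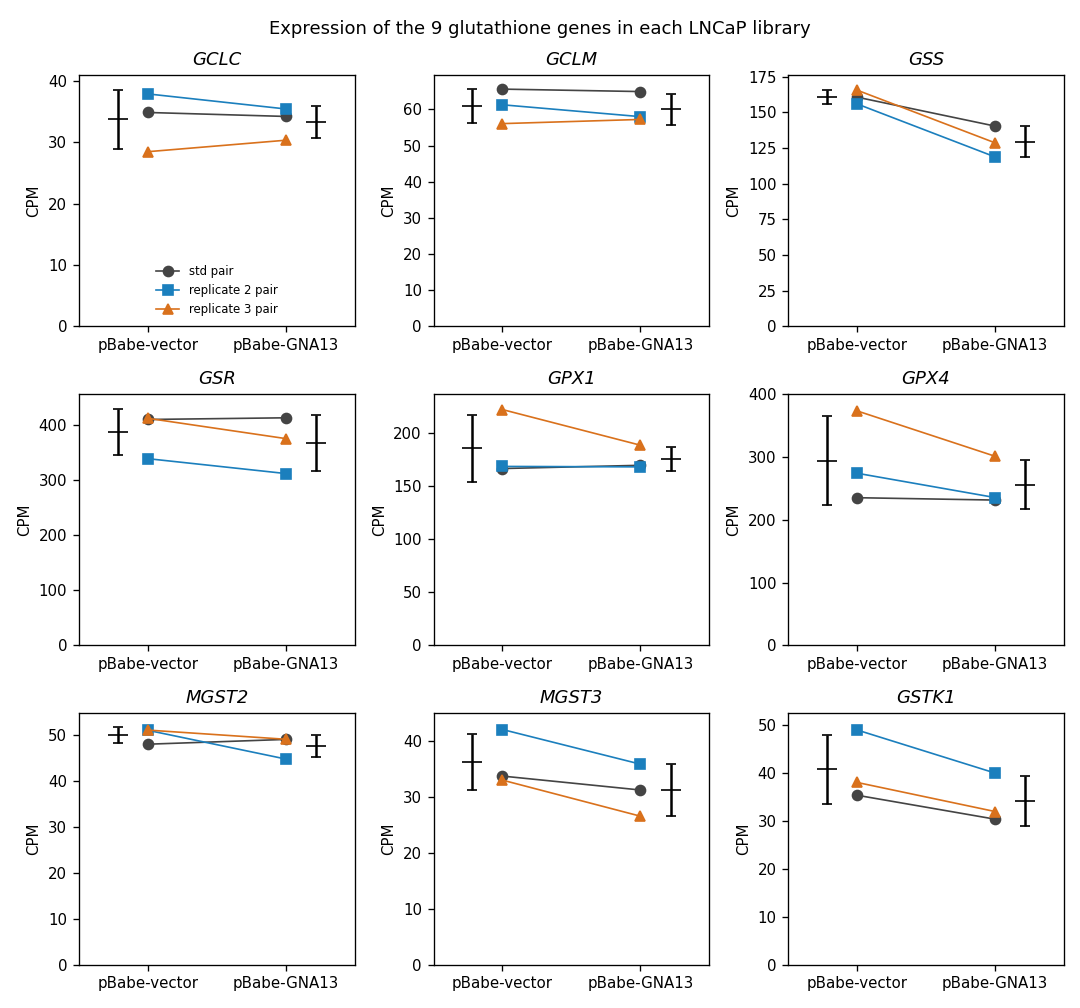
CPM (linear axes from 0) of each of the 9 glutathione genes in the 3 pBabe-vector and 3 pBabe-GNA13 libraries. Lines join the libraries of a pair, and the black marks beside the points are the mean and SD of each group (n = 3). Only for GSS do the groups not overlap, with 119 to 140 CPM in pBabe-GNA13 and 156 to 166 CPM in pBabe-vector.

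Of the ligase subunits, GCLC (chromosome 6, 53497341 to 53616970, GRCh38, Gencode 44) was at 34.2, 35.5 and 30.4 CPM in the std library, replicate 2 and replicate 3 of pBabe-GNA13 and at 34.9, 37.9 and 28.5 CPM in those of pBabe-vector. The replicate 3 library was the lowest of both lines, and the groups overlapped fully. Its log2 fold change was −0.02 (edgeR's adjusted p = 1.0, standard error 0.13), and −0.01 with the block (95% interval −0.14 to 0.12). GCLM (chromosome 1, 93885199 to 93909456) was at 65.0, 58.0 and 57.2 CPM in pBabe-GNA13 and at 65.6, 61.3 and 56.1 CPM in pBabe-vector, in the same order of libraries. Its log2 fold change was −0.02 with the block (95% interval −0.13 to 0.09). For both subunits 2 of 3 pairs were lower in pBabe-GNA13 and the replicate 3 pair was higher, so neither showed a difference beyond the spread of the cultures. Counts of GCLC per count of GCLM, compared here between libraries and not between genes, were 0.556 ± 0.0477 in pBabe-GNA13 and 0.553 ± 0.0583 in pBabe-vector (SD, n = 3 each, exact permutation test, two-sided p = 1.0). The ratio was highest in replicate 2 of both lines (0.611 and 0.618). A small part of the exons of GCLC (3.54% of bases) lies opposite the long noncoding RNA GCLC-AS1. Another 6.14% overlap is with a long noncoding RNA on the same strand, which strand cannot tell apart. Whether strand was used in counting is not given in the sources used here.

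GSS, the second enzyme of synthesis, was the member with the largest difference. It lies on chromosome 20 (34928432 to 34956027), with 2.24% of its exon bases opposite MYH7B. Its level was 140 CPM in the std library, 119 CPM in replicate 2 and 129 CPM in replicate 3 of pBabe-GNA13, and 161, 156 and 166 CPM in those of pBabe-vector. Every pBabe-GNA13 library was below every pBabe-vector library, which held for 6.79% of all genes in this direction and 7.49% of those of at least 1 CPM (exact permutation test, two-sided p = 0.10, the smallest that 3 against 3 allows). The means were 129 ± 10.8 CPM against 161 ± 4.84 CPM (SD, n = 3 each), which is −0.31 on the log2 scale (edgeR's adjusted p = 0.395, standard error 0.10), with each pair lower. With the block GSS fell (log2 fold change −0.32, 95% interval −0.43 to −0.21, edgeR's adjusted p = 8.25e-05). The genes of chromosome 20 were lower as a whole in pBabe-GNA13, with a median log2 fold change of −0.21 over 338 genes of at least 1 CPM, of which 50.9% were called lower with the block. With each chromosome centered on its own median, the log2 fold change of GSS in the blocked fit was −0.12 and it was no longer called (edgeR's adjusted p = 0.147). Differences particular to GSS and those shared by its chromosome were not separated further.

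GSR, which regenerates reduced glutathione, lies on chromosome 8 (30678066 to 30727846). It was at 414, 312 and 376 CPM in the std library, replicate 2 and replicate 3 of pBabe-GNA13 and at 411, 339 and 413 CPM in those of pBabe-vector. Replicate 2 was the lowest library in both lines and the groups overlapped. The log2 fold change was −0.08 in both fits, with a 95% interval of −0.40 to 0.24 without the block and −0.19 to 0.02 with it (edgeR's adjusted p = 0.981 and 0.299).

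The 2 peroxidases are selenoproteins with different substrates: GPX1 reduces hydrogen peroxide in the cytosol and mitochondria, and GPX4 reduces lipid hydroperoxides in membranes and is the enzyme that holds off ferroptosis. GPX1 (chromosome 3, 49357174 to 49358605) was at 170, 168 and 189 CPM in pBabe-GNA13 and at 167, 169 and 222 CPM in pBabe-vector. The std and replicate 2 libraries of the lines were nearly equal, and the difference lay in replicate 3. Its log2 fold change with the block was −0.07 (95% interval −0.19 to 0.04, edgeR's adjusted p = 0.425). In Gencode 44, 39.9% of its exon bases are shared with another protein-coding gene on the same strand, and that gene and the pseudogenes GPX1P1 and GPX1P2 were not analysed here. GPX4 (chromosome 19, 1103982 to 1106791) was at 231, 235 and 301 CPM in pBabe-GNA13 and at 235, 274 and 373 CPM in pBabe-vector. Replicate 3 was the highest library of both lines, and the groups overlapped, with means of 256 ± 39.2 CPM and 294 ± 71.3 CPM (SD, n = 3 each). GPX4 was lower in 3 of 3 pairs, by 0.02, 0.22 and 0.31 on the log2 scale in the std, replicate 2 and replicate 3 pairs. Its log2 fold change was −0.20 without the block (edgeR's adjusted p = 0.910, standard error 0.19) and −0.18 with it (95% interval −0.30 to −0.07, edgeR's adjusted p = 0.0170). It was still called with chromosomes centered (edgeR's adjusted p = 0.0226), and without the replicate 3 pair it was not (0.376).

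The transferases MGST2 and MGST3 belong to the MAPEG family of membrane proteins, which conjugate glutathione to lipids such as leukotriene A4 and reduce lipid hydroperoxides, and GSTK1 is the kappa-class enzyme of mitochondria and peroxisomes. MGST2 (chromosome 4, 139665768 to 139740745) was the steadiest member, at 49.0, 44.8 and 49.1 CPM in pBabe-GNA13 and at 48.0, 51.0 and 51.1 CPM in pBabe-vector. Its highest library was 1.14 times its lowest, and its log2 fold change was −0.07 (edgeR's adjusted p = 0.949, or 0.448 with the block). Of its exon bases, 7.94% lie opposite MAML3. MGST3 (chromosome 1, 165631213 to 165661796) was at 31.3, 35.9 and 26.6 CPM in pBabe-GNA13 and at 33.8, 42.1 and 33.1 CPM in pBabe-vector. It was lower in each pair although the groups overlapped, and replicate 2 was the highest library of both lines. The log2 fold change of MGST3 was −0.22 without the block (edgeR's adjusted p = 0.837, standard error 0.15) and −0.22 with it (95% interval −0.35 to −0.08, edgeR's adjusted p = 0.0162). That call was lost without the replicate 2 pair (0.0614), without the replicate 3 pair (0.242) and with DESeq2 in place of edgeR (0.0980 with the block).

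GSTK1 (chromosome 7, 143244093 to 143270854) showed the most even difference across the pairs. It was at 30.3, 40.0 and 31.9 CPM in the std library, replicate 2 and replicate 3 of pBabe-GNA13 and at 35.3, 48.9 and 38 CPM in those of pBabe-vector. Replicate 2 was again the highest in both lines, and replicate 2 of pBabe-GNA13 lay above the std library and replicate 3 of pBabe-vector, so the groups overlapped. Within pairs GSTK1 was lower by 0.22, 0.29 and 0.25 on the log2 scale. The log2 fold change was −0.26 without the block (edgeR's adjusted p = 0.791, standard error 0.16) and −0.25 with it (95% interval −0.38 to −0.13, edgeR's adjusted p = 0.00269). GSTK1 remained called without any 1 pair (edgeR's adjusted p = 0.00299, 0.0234 and 0.0284 without the std, replicate 2 and replicate 3 pair) and with chromosomes centered (0.0115). With limma-trend and the block its adjusted p was 0.0555 and that of GSS was 0.0698, and that method called 0 of the 9 members and 433 of all genes.

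**Figure D2:**
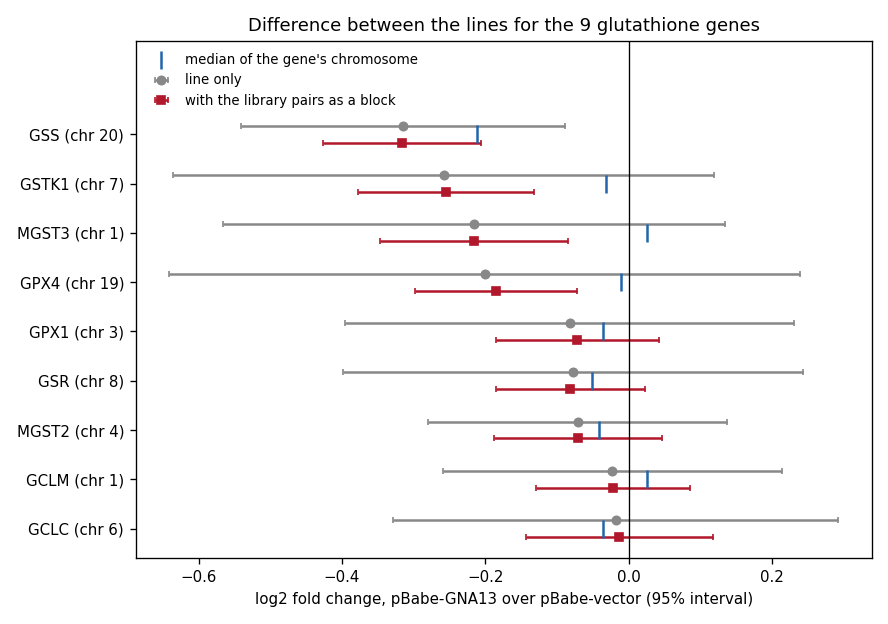
Log2 fold change of pBabe-GNA13 over pBabe-vector for each gene, with 95% intervals, from the fit with the line alone (gray circles) and with the library pairs as a block (red squares). Blue ticks mark the median log2 fold change of the chromosome that carries the gene. Points of both fits nearly coincide while the intervals narrow with the block, and only GSS, on chromosome 20, has a chromosome median far from 0 (−0.21).

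Most of the 9 genes differed between cultures of the same line. In the blocked fit 7 of the 9 genes differed between the library pairs (edgeR's quasi-likelihood F test on both pair terms, adjusted p under 0.05), as did 47.4% of all genes and 56.5% of genes of at least 1 CPM. GSS and MGST2 did not pass (adjusted p = 0.177 and 0.728). The pairs moved the genes in opposite ways. From replicate 2 to replicate 3, GPX4 was higher by a log2 fold change of 0.40, GPX1 by 0.28 and GSR by 0.27, whereas MGST3 fell by 0.39, GSTK1 by 0.34 and GCLC by 0.32. GPX4 had the widest range of any member, with a highest library 1.61 times its lowest, and GSTK1 had the same ratio. Within each pair the median log2 ratio of the 9 genes was −0.02 (std), −0.19 (replicate 2) and −0.24 (replicate 3), nearest to 0 in the std pair.

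**Figure D3:**
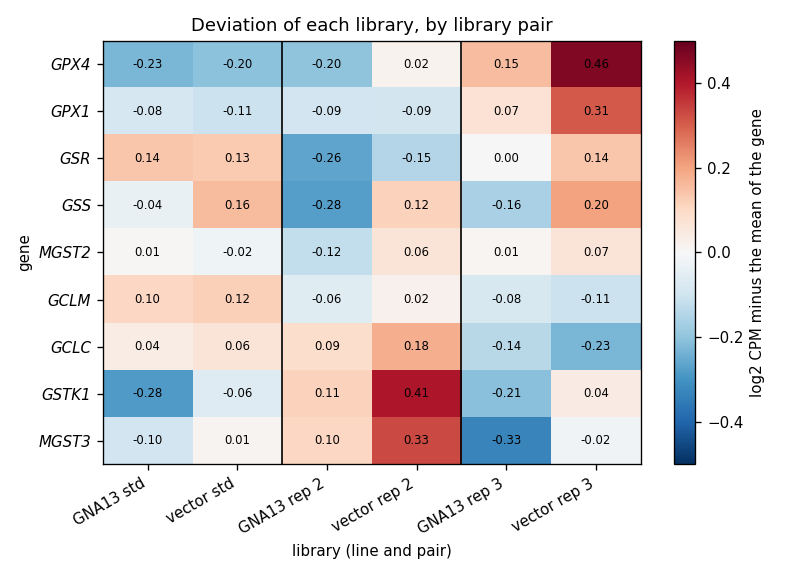
Log2 CPM of each gene in each library minus the mean of that gene over the 6 libraries, with the libraries grouped by pair and the genes ordered by their change from replicate 2 to replicate 3. GPX4 and GPX1 are highest in replicate 3 (0.46 and 0.31 in pBabe-vector) and GSTK1 and MGST3 in replicate 2 (0.41 and 0.33 in pBabe-vector).

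Levels of different genes were compared as CPM per kilobase of annotated exon, which depends on the annotated length. On this scale GPX4 was highest, at 126 to 203 over the 6 libraries, followed by GPX1 at 116 to 155, with GPX4 above GPX1 in 6 of 6 libraries although the ranges overlapped. GSR followed at 86.7 to 115, below GPX1 in every library. GSS (19.3 to 26.9), MGST2 (14.1 to 16.1), GCLM (10.3 to 12.1) and GSTK1 (7.20 to 11.6) came next, and only GCLM and GSTK1 among these had overlapping ranges. MGST3 (3.30 to 5.23) and GCLC (3.30 to 4.40) were lowest and did not differ beyond their spread. The places of GSTK1, MGST3 and GCLC rest largely on their annotated lengths of 4214, 8052 and 8618 bases. Without the division by length their means over the 6 libraries were 37.4, 33.8 and 33.6 CPM.

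For 6 of the 9 genes, all but GSS, GSR and MGST2, a RefSeq start site (GRCh38.p14) was at hand in the promoter set used here. The 250 bases before it were searched on both strands for the core of the antioxidant response element (TGACNNNGC), the site bound by NRF2 with a small MAF protein, the CCAAT box (CCAAT) and the GC box (GGGCGG). Within those 250 bases, GCLM alone of the 6 held the antioxidant response element core, 34 bases before its start. The core was in 11% of the 27305 promoters searched, and bases outside this window were not searched. The GC box was in 5 of the 6 (all but GCLC) and in 42.3% of all promoters, and the CCAAT box in GCLC and GPX4 and in 33%. The promoters below are those of GCLM, for its antioxidant response element, and of 3 genes called lower with the block. These are the called genes in the promoter set used here, and none of the 3 held that core in this window. Matches to a motif are in capitals, on either strand, and did not overlap one another.
GCLM, chr1:93909431-93909680, minus strand: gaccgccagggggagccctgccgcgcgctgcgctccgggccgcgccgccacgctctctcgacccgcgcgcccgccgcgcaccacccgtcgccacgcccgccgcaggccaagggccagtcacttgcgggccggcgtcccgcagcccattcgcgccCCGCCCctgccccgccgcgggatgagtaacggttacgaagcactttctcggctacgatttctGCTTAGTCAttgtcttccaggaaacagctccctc
GPX4, chr19:1103744-1103993, plus strand: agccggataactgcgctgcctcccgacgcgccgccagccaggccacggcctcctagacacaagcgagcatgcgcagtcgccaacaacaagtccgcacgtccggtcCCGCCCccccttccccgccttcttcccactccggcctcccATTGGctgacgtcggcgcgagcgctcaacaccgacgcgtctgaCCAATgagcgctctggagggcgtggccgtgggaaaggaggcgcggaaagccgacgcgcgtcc
MGST3, chr1:165630984-165631233, plus strand: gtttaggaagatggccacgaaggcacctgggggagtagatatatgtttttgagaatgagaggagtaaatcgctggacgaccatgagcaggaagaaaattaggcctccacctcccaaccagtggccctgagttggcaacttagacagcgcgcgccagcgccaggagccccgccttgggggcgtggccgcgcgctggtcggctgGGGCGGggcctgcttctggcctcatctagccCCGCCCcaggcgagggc
GSTK1, chr7:143263191-143263440, plus strand: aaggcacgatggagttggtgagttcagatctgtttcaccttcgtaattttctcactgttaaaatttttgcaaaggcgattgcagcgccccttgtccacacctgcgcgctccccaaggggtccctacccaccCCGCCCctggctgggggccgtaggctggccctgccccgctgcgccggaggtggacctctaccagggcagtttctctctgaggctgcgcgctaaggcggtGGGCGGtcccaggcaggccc

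These are matches of letters only. The 6 promoters had 60.8% to 72.4% G and C, beside a median of 58.0% over all promoters.

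Other genes of glutathione metabolism were taken from 8 lists, with 62 of their 73 genes measured here. Of these 62, 0 were called without the block (edgeR's quasi-likelihood test). At an unadjusted p under 0.05 there were 5, beside 8.46% of all genes. DESeq2 called 2, GPX8 and MGST1 (adjusted p = 1.76e-06 and 0.0114), and 271 of all genes, whereas limma-trend called 0. The blocked fit called 22 of them, 5 higher and 17 lower, beside 9.32% and 10.4% of all genes. With chromosomes centered, 7 were higher and 13 lower, against 6.58% and 7.56% of all genes. The median log2 fold change of the 62 was −0.03. Of the 22, 20 were still called without the std pair (not CBS and SECISBP2), 14 without the replicate 2 pair (not PTGES, GSTO1, GLRX, GLRX3, CHAC1, PGLS, TALDO1 and SEPSECS) and 16 without the replicate 3 pair (not GSTO1, GLRX3, SLC1A5, GGT1, PGLS and TALDO1). With DESeq2 and the block 13 of the 22 were called. GSTO1, GLRX, GLRX3, GGT1, PGLS, TALDO1, SECISBP2 and SEPSECS were not, and DESeq2 gave PTGES no adjusted p. The 10 called with edgeR without any 1 pair included GPX8, MGST1, GSTA4, SLC7A11, GGT7, OPLAH, IDH1, ME1 and TKT.

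Among the called genes the largest differences in the blocked fit, before chromosomes were centered, were those of PTGES, GPX8, GGT7 and MGST1. GPX8, a peroxidase of the endoplasmic reticulum, was at 13.3, 8.87 and 9.54 CPM in the std library, replicate 2 and replicate 3 of pBabe-GNA13 and at 31.4, 28.7 and 21.1 CPM in those of pBabe-vector. Every pBabe-GNA13 library was below every pBabe-vector library. The log2 fold change was −1.35 (edgeR's adjusted p = 0.106, standard error 0.21, or 1.53e-11 with the block). MGST1, the membrane transferase related to MGST2 and MGST3, was at 203, 217 and 238 CPM in pBabe-GNA13 and at 127, 152 and 162 CPM in pBabe-vector. The groups did not overlap, and MGST1 rose with the block (log2 fold change 0.58, 4.50e-09 as edgeR's adjusted p, or 0.220 without the block). It lies on chromosome 12, whose median was 0.30. Relative to that chromosome it was higher by 0.29 and still called (edgeR's adjusted p = 0.000227 with the block). PTGES, which makes prostaglandin E2, was at 0.300 ± 0.159 CPM against 0.991 ± 0.638 CPM (SD, n = 3 each) and was called lower with the block (0.00252), though not without the replicate 2 pair (0.0962). GPX2 and GPX3 were at 0.145 to 0.294 CPM and 0.530 to 1.83 CPM, and GPX7 had no read in any library, which allows up to 3 counts in each (at most 0.0935 CPM).

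Cytosolic transferases of one class are close in sequence, and how reads shared between them were counted is not given in the sources used here. Among them, GSTA4, which detoxifies the lipid aldehyde 4-hydroxynonenal, rose with the block (log2 fold change 0.28, edgeR's adjusted p = 0.00407), and GSTO1 fell (−0.20, edgeR's adjusted p = 0.00980, but 0.0562 with chromosomes centered). The most abundant of this list was GSTM3, at 54.9 ± 1.43 CPM in pBabe-GNA13 and 55.5 ± 7.64 CPM in pBabe-vector (SD, n = 3 each), with a log2 fold change of −0.02. GSTP1, whose promoter is usually methylated in prostate cancer, had 17, 0 and 14 counts in pBabe-GNA13 and 9, 1 and 12 counts in pBabe-vector. Of the thiol reductases, GLRX and GLRX3 fell with the block (log2 fold change −0.48 and −0.17, edgeR's adjusted p = 0.00784 and 0.0203, of which GLRX3 was at 0.104 with chromosomes centered), and GLO1, the most abundant of the glutaredoxin and glyoxalase list, had a log2 fold change of 0.08 (edgeR's adjusted p = 1.0, or 0.306 with the block).

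Of 7 genes that supply the building blocks of glutathione, 3 fell with the block and 0 rose, beside 10.4% of all genes lower and 9.32% higher. SLC7A11, the cystine importer, fell with the block (log2 fold change −0.28, edgeR's adjusted p = 0.000702). It was at 270, 243 and 101 CPM in pBabe-GNA13 and at 361, 302 and 108 CPM in pBabe-vector, so replicate 3 of both lines held less than the other libraries by a wider margin than the lines differed. SLC1A5, which imports glutamine, and CBS, of the transsulfuration pathway, also fell (−0.18 and −0.21, edgeR's adjusted p = 0.0105 and 0.0102 with the block). The other 4 genes of this list did not pass. Of 12 genes of breakdown and transport, 4 fell with the block and 0 rose, beside those same shares of all genes: GGT7 (−0.59), CHAC1 (−0.38), OPLAH (−0.36) and GGT1 (−0.26, no longer called with chromosomes centered). GGT7 lies on chromosome 20, as GSS does. With chromosomes centered as well as the block it was at −0.39 and still called (edgeR's adjusted p = 0.00205). ABCC4, an exporter of organic anions and the most abundant gene of that list, had a log2 fold change of −0.02 with the block (edgeR's adjusted p = 0.817).

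Of the 9 genes listed for NADPH supply, 6 were called with the block, 4 lower and 2 higher, beside 19.7% of all genes. Not all of the 9 make NADPH themselves. ME1, malic enzyme, was at 108, 121 and 76.3 CPM in pBabe-GNA13 and at 131, 180 and 94.1 CPM in pBabe-vector. Each pair was lower in pBabe-GNA13 although the groups overlapped. With the block ME1 fell by 0.39 on the log2 scale (edgeR's adjusted p = 1.50e-05), TKT, transketolase, by 0.21 (0.00308) and TALDO1 by 0.16 (0.0336, or 0.173 with chromosomes centered). PGLS and IDH1 rose by a log2 fold change of 0.18 and 0.22 (edgeR's adjusted p = 0.0326 and 0.00198). NNT, the mitochondrial transhydrogenase, was at 0.0295 to 0.966 CPM over the 6 libraries. For the machinery that inserts selenocysteine into GPX1 and GPX4, SECISBP2 fell and SEPSECS rose with the block (log2 fold change −0.22 and 0.24, edgeR's adjusted p = 0.0119 and 0.00903). SEPHS2, the most abundant of the 8, had a log2 fold change of 0.11 (edgeR's adjusted p = 0.133 with the block). With chromosomes centered as well as the block, SEPHS2 was called higher (log2 fold change 0.15, edgeR's adjusted p = 0.0435).

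The genes whose expression over the 6 libraries was most like that of GSS, by the root mean square difference between centered log2 CPM values over 14059 genes, were PKN3 (0.02), NCEH1 (0.04) and GMFB (0.04). They lie on chromosomes 9, 3 and 14. PKN3 was at 5.36 ± 0.467 CPM in pBabe-GNA13 and 6.86 ± 0.222 CPM in pBabe-vector (SD, n = 3 each), on 166 to 285 counts in a library. By edgeR, PKN3, NCEH1 and GMFB had adjusted p of 0.572, 0.501 and 0.534 without the block and 0.0389, 0.0142 and 0.00201 with it. As these genes were picked for their likeness to GSS over the same libraries, their being lower follows from that choice. It is no separate result.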

How the data were processed

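Counts per gene symbol for 6 LNCaP libraries were analyzed. Per the study's methods, the authors checked reads with FastQC 0.11.7, aligned them with STAR to Gencode 38 and counted them with featureCounts. The deposited table holds read counts of whole reads for each gene symbol, as the authors counted them and without normalization, although their methods describe CPM on the log2 scale. All 6 columns were used and 0 were left out. The pBabe-GNA13 column tagged std repeats the number of replicate 2, so it is tied to its line only.

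Counts were scaled by TMM and tested with edgeR 4.0.16 (quasi-likelihood, legacy dispersions, R 4.3.3) over all 17297 genes, without a filter, with Benjamini-Hochberg adjustment. CPM is TMM-normalized. Replicate numbers in the headings and the tag std gave 3 pairs, whose deviations from the group means correlated at 0.659 to 0.888 over 12778 genes, so a fit that also has the pair as a term (the block) is given too. Exact tests used SciPy 1.17.1. Scripts were tested on simulated data. Chromosomes came from Gencode 44 (GRCh38), by symbol or RefSeq synonym for 83.3% of genes, and other genes were not centered. Gencode 44 lengths are unions of exons.

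Members, lists and tests were chosen with earlier results of these data known. Named genes are the 9 members, GNA13, GSTP1, the most abundant and all called genes of each list, and the 3 genes most like the member with the smallest p. Other genes were named after their values were seen. Some genes of the lists are counted but not reported here by name. Counting error only is covered by the 3-count floor. DESeq2 1.42.0, limma-trend (limma 3.58.1, log2 CPM with a prior count of 2), other scalings, a filter at 1 CPM and omitted libraries were alternatives.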

Additional observations from a re-analysis of the deposited data

How the results depend on the processing

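The median log2 fold change of the 9 genes stayed below 0 under every alternative tried, from −0.15 to −0.05. No member was called without the block under any alternative, and 4 were with it. With the block the count was 3 with chromosomes centered, 3 with DESeq2, 0 with limma-trend and 2 to 4 without 1 pair. For the other 62 glutathione genes the count was 22 with the block, 20 with chromosomes centered as well, 13 with DESeq2 and the block, 2 with limma-trend and the block, 14 to 20 (17 without pair 3) with the block and without 1 pair, and 2 with DESeq2 alone. Of all genes, 24 were called with the line alone, 2 at an adjusted p under 0.01, 271 with DESeq2, 5 with limma-trend and 2 to 15 without 1 library, each of the 6 omissions lowering the count by over 1.5 times. With the block there were 3407, and 2445 with chromosomes centered, 2000 with DESeq2, 433 with limma-trend and 2250 to 3266 (2550 without pair 2) without 1 pair. The cause of these differences between tools was not tested.

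Members near 0 changed sign. GCLC was 0.010 with chromosomes centered (0.015 with the block). Without 1 library GCLC ranged from −0.13 to 0.073, GCLM from −0.079 to 0.034, GSR from −0.16 to 0.027, GPX1 from −0.15 to 0.066 and GPX4 from −0.34 to 0.0079. With the block, GCLC was 0.026 and GCLM 0.0024 without the replicate 2 pair, and GPX1 was 0.021 without the replicate 3 pair. GPX4 turned positive without replicate 3 of pBabe-vector. The count of members that differed between pairs was 6 or 7 throughout. With 3 cultures of 1 line per condition, a property of either line and an effect of GNA13 cannot be told apart. DESeq2 and limma-trend with the block, and the alternatives for differences between pairs other than centered chromosomes, were chosen after seeing the data.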

Other observations

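In the blocked fit 47.4% of all genes and 56.5% of genes of at least 1 CPM differed between the library pairs. Of the 62 other glutathione genes, 40 did (edgeR's quasi-likelihood F test, adjusted p under 0.05). CHAC1, a gamma-glutamylcyclotransferase that degrades glutathione and is induced when amino acids are short, spanned the widest range of those at or above 1 CPM in every library: 42.3, 25.4 and 10.1 CPM in the std library, replicate 2 and replicate 3 of pBabe-GNA13 and 52.9, 39.6 and 10.6 CPM in those of pBabe-vector. SLC7A11 followed the same order of libraries in both lines. The highest library of CHAC1 was 5.26 times its lowest, and that of SLC7A11 3.56 times. GLO1, which detoxifies methylglyoxal with glutathione, was highest instead in replicate 3, at 541 and 522 CPM, beside 284 to 344 CPM in the other libraries. CHAC1, SLC7A11 and GLO1 were chosen here after their values were seen.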
